A study of Mus musculus with 2 samples.

Results

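The secreted and membrane-bound matrix proteases of the Mmp and Adamts families and their inhibitors, the Timps, were followed across the cells of mouse pancreatic tumours. The members were all genes of the deposited matrices whose symbol is Mmp, Adamts or Timp followed by digits and at most 1 letter. This gave 45 of 32285 genes, of which 22 were Mmp, 19 Adamts and 4 Timp genes. The tumours grew from KPC cells, a mouse pancreatic cancer line, implanted in the pancreas, and were taken 21 days later. The control mice carried Porcnfl/fl alleles without Cre and are labelled WT. The knockout mice carried the same floxed alleles with Csf1r-Cre, a recombinase driven by the promoter of the macrophage colony-stimulating factor receptor gene. Porcn encodes the enzyme that lipidates Wnt proteins for secretion. The controls were littermates. Each genotype was 1 library of 5 pooled mice, and ages are not given in the labels. With 1 library in each group there is no test between genotypes: every difference below lies between 2 libraries, and every interval is an exact 95% interval that covers counting error only.

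Matrix metalloproteinases (Mmps) are zinc enzymes made as inactive precursors. Between them they cut collagens, elastin, proteoglycans and many cell surface proteins. Adamts enzymes are related proteases with thrombospondin repeats. Some trim procollagens, and others cut the large proteoglycans versican and aggrecan. Timps bind the active site of many Mmps and block it. In pancreatic tumours, which are rich in fibrous stroma, fibroblasts and myeloid cells are known sources of both enzymes and inhibitors.

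The control library held 13766 barcodes and 173934025 unique molecular identifiers (UMIs), and 11516 cells were kept. The knockout library held 12251 barcodes and 137527647 UMIs, and 10467 cells were kept. Median depth was 12167.5 and 10109 UMIs per kept cell. The libraries shared 46 barcodes, 38 of them among kept cells. Porcn itself was read by 1212 UMIs in kept control cells and 637 in kept knockout cells. In the monocyte/macrophage-like cells, where Csf1r-Cre is active, the control library had 3.17 CPM (UMIs of the gene per 1000000 UMIs of the class; 1.37 to 6.26) and the knockout library 1.41 CPM (0.385 to 3.61). These levels rest on 8 and 4 UMIs and their intervals overlap, and a 3′ tag outside the deleted exons does not check the deletion. In fibroblast-like cells Porcn was at 6.82 and 14.9 CPM. The samples are labelled tumour-infiltrating cells, but epithelial/tumour-like cells, which carry keratins and Epcam, made up 66.9% of kept control and 39.6% of kept knockout cells. Comparisons were made in classes that had 100 or more cells from both libraries, namely the epithelial/tumour-like (7703 control and 4144 knockout cells), fibroblast-like (638 and 735), monocyte/macrophage-like (512 and 552), neutrophil-like (293 and 185) and T-like (189 and 1622) cells. Clusters without a clear class held 1829 control and 1775 knockout cells and were left out of these 5 classes. The UMIs are 3′ tags, so they carry no per-length scale, and levels are compared for 1 gene between cells. Sums over a family add UMIs, so genes with many UMIs weigh most in them.

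Of the 45 members, 33 reached 100 UMIs over both libraries in at least 1 of the 5 classes, 5 more reached 20, and 7 stayed under 20. For 22 of the 33 the fibroblast-like class had the highest level of these 5 classes in the control library. Smaller classes were not ranked. The highest class was the epithelial/tumour-like one for 4, the T-like one for 3, and the monocyte/macrophage-like and neutrophil-like ones for 2 each. It was the same class in the knockout library for 30 of the 33. The 3 others were Mmp16, Mmp27 and Adamts10. The 7 members under 20 UMIs were Mmp1b, Mmp20, Mmp21, Mmp24, Adamts13, Adamts18 and Timp4, and their values are not described further.

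**Figure D1:**
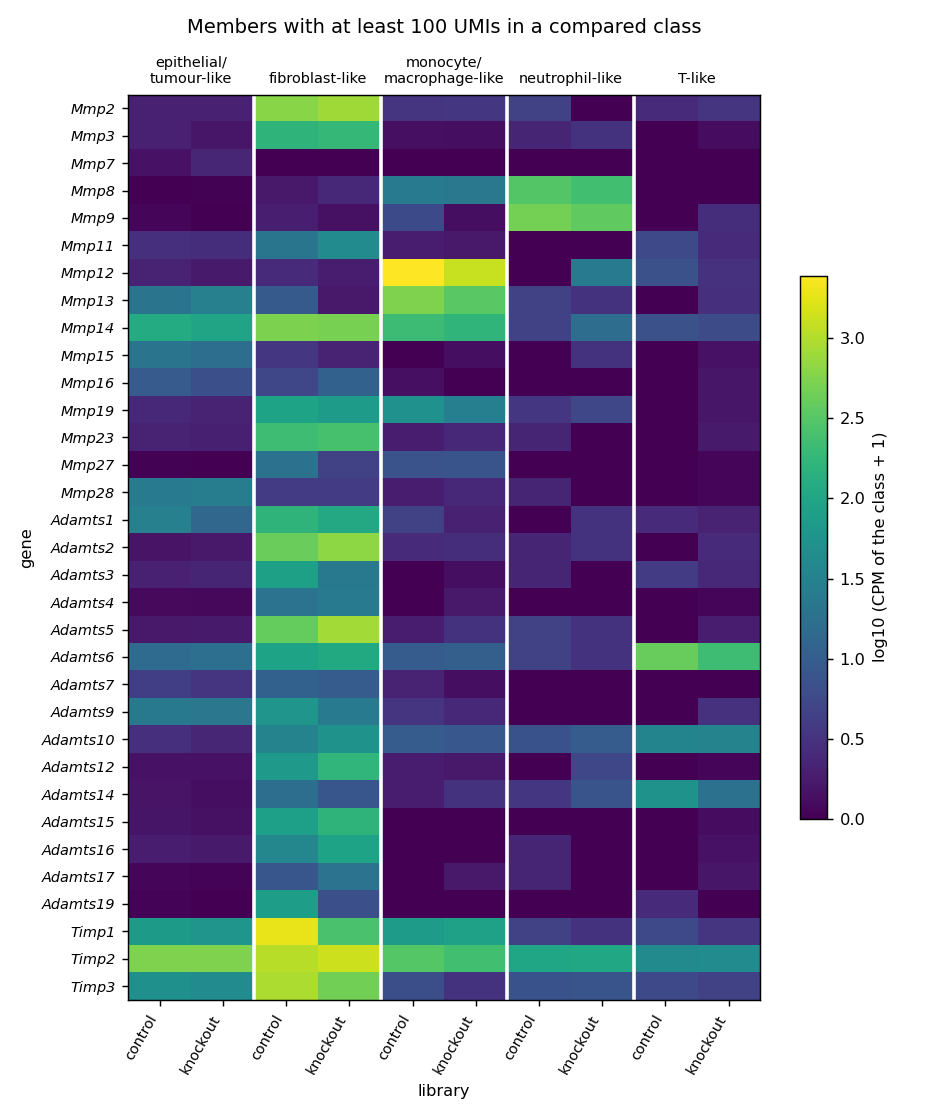
Level of the 33 members with at least 100 UMIs in a compared class, by class and library, as log10 of CPM plus 1 (colour). Most rows are brightest in the fibroblast-like columns, with Mmp12 in the monocyte/macrophage-like, Mmp8 and Mmp9 in the neutrophil-like and Adamts6 in the T-like columns as exceptions.

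Sequences before the start site are shown for 3 Mmp genes of 1 run on the same chromosome, 2 with an AP-1 match and 1 without, and for Timp1, the inhibitor with the largest difference. The Mmp run lies on chromosome 9 of GRCm38 (7272514 to 7699585, GENCODE M21), where 9 Mmp genes share 427072 base pairs: Mmp13, Mmp12, Mmp1b, Mmp3, Mmp10, Mmp8, Mmp27, Mmp20 and Mmp7. Among the compared classes Mmp12 and Mmp13 were highest in monocyte/macrophage-like cells, Mmp8 in neutrophil-like cells, Mmp3 in fibroblast-like cells and Mmp7 in epithelial/tumour-like cells. Promoter sequences come from the RefSeq table of GRCm38.p6, which matched 31 members with 34 promoters. The lines give the 120 bases before the start of Mmp13 (chr9:7272394-7272513), Mmp12 (chr9:7347254-7347373) and Mmp27 (chr9:7571276-7571395), all on the plus strand. Capitals mark matches to the AP-1 motif TGANTCA, searched on both strands, and to TATAAA, searched on the gene's strand.
Mmp13: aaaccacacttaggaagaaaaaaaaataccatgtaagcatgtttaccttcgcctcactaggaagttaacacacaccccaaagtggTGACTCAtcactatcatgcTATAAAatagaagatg
Mmp12: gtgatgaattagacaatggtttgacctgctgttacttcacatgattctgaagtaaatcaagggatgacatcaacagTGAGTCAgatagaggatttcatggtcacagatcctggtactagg
Mmp27: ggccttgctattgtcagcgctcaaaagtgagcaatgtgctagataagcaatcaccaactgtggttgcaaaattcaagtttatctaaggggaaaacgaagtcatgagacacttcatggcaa

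The AP-1 match begins 35 bases before the start in Mmp13 and 44 bases before the start used in Mmp12. For Mmp12, 2 promoters are listed, and the one shown lies inside the annotated gene (7344381 to 7369499). The other (chr9:7344147-7344446), at the gene's annotated start, held no AP-1 match. The window of Mmp27 holds none. Over the 250 bases before the start, 7 of the 9 genes of the run held TGANTCA in a listed promoter, and Mmp8 and Mmp27 did not. Mmp7, like Mmp12, also has a listed promoter without it. None of the 22 other members with a promoter in the table held it. Counted by promoters, 7 of 34 member promoters (20.6%) held the motif, against 6.75% of all 32851 promoters in the table. TATAAA was in 8 of 34 (23.5%), against 7.59%. A match is a description of letters, not of a bound site. Timp1 is on chromosome X (20870166 to 20874735, plus strand), overlapping Syn1 on the opposite strand. Timp3 likewise overlaps Syn3 and Mmp12 overlaps Mmp1b, each on the opposite strand. Reads of these pairs could be shared only if strand was not used in counting, which is not given. Timp2 overlaps Cep295nl on its own strand, so reads of that pair could be shared. The 250 bases before the start of Timp1 (chrX:20869916-20870165) held no TGANTCA and no TATAAA. The capitals below mark the Ets motif AGGAAG, searched on both strands.
Timp1: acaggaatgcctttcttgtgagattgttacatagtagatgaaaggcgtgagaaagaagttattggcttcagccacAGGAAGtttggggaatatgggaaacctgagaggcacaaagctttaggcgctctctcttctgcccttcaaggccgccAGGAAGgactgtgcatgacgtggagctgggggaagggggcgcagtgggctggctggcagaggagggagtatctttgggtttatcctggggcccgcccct

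The Ets motif was in 14 of 34 member promoters (41.2%) and in 29.5% of all promoters. In Timp1 the matches begin 175 and 99 bases before the start.

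The inhibitors differed most in fibroblast-like cells. Timp1, an inhibitor that is known to be induced in reactive stroma, was at 1913 CPM (18794 UMIs) in control fibroblast-like cells. In knockout fibroblast-like cells it was at 259 CPM (1872 UMIs), a log2 ratio of knockout over control of -2.89 (-2.96 to -2.82). Timp3, the inhibitor that stays bound to matrix, was at 941 CPM in control and 469 CPM in knockout cells, a log2 ratio of -1.003 (-1.06 to -0.95). Timp2, which both inhibits Mmp2 and helps Mmp14 to activate it, was at 1062 and 1372 CPM, a log2 ratio of 0.37 (0.33 to 0.41). The clusters with most fibroblast-like cells differed between libraries: in control they were led by Clca3a2 and Col24a1 (160 cells) and by Apod and Prg4 (107), and in knockout by Mest and Abca8a (109) and by Hp and Barx1 (100). Of the 3 measured inhibitors, Timp1 and Timp3 were at least 2-fold lower in the knockout library and Timp2 was not. Summed over the family, Timp UMIs made up 3916 CPM (3877 to 3956) of control and 2100 CPM (2067 to 2134) of knockout fibroblast-like cells.

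Few cells held much of the control Timp1. A cluster of fibroblast-like cells led by Timp1, Ndufa4l2 and Inhba held 29 control cells and 1 knockout cell. In its control cells Timp1 was at 12776 CPM, and they held 53.1% of all Timp1 UMIs of the control class. The member genes were left out of the genes used for clustering, but Timp1 was still among this cluster's leading genes, and a cluster almost wholly from 1 library may be that library rather than a cell type. The 10 control cells richest in Timp1 held 43.6% of the class's UMIs of the gene, against 21.7% in knockout cells. Without this cluster Timp1 was at 974 CPM in control and 259 CPM in knockout cells, a log2 ratio of -1.91 (-1.99 to -1.84). Timp3 was at 3536 CPM in the same 29 cells, and without the cluster its log2 ratio was -0.62 (-0.68 to -0.56). Across the other clusters with at least 10 cells in each library, Timp1 was lower in the knockout cells of 8 and higher in 2, the cluster led by Mest and Abca8a (71.9 and 140 CPM) and the one led by Gstm1 and Anxa3 (121 and 178 CPM). When the 10 clusters shared by both libraries were given the same weight in each, the log2 ratio of Timp1 was -1.23, while that of Timp3 was 0.12, the opposite direction. That weighting left out 22.3% of control and 11.02% of knockout fibroblast-like cells.

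**Figure D2:**
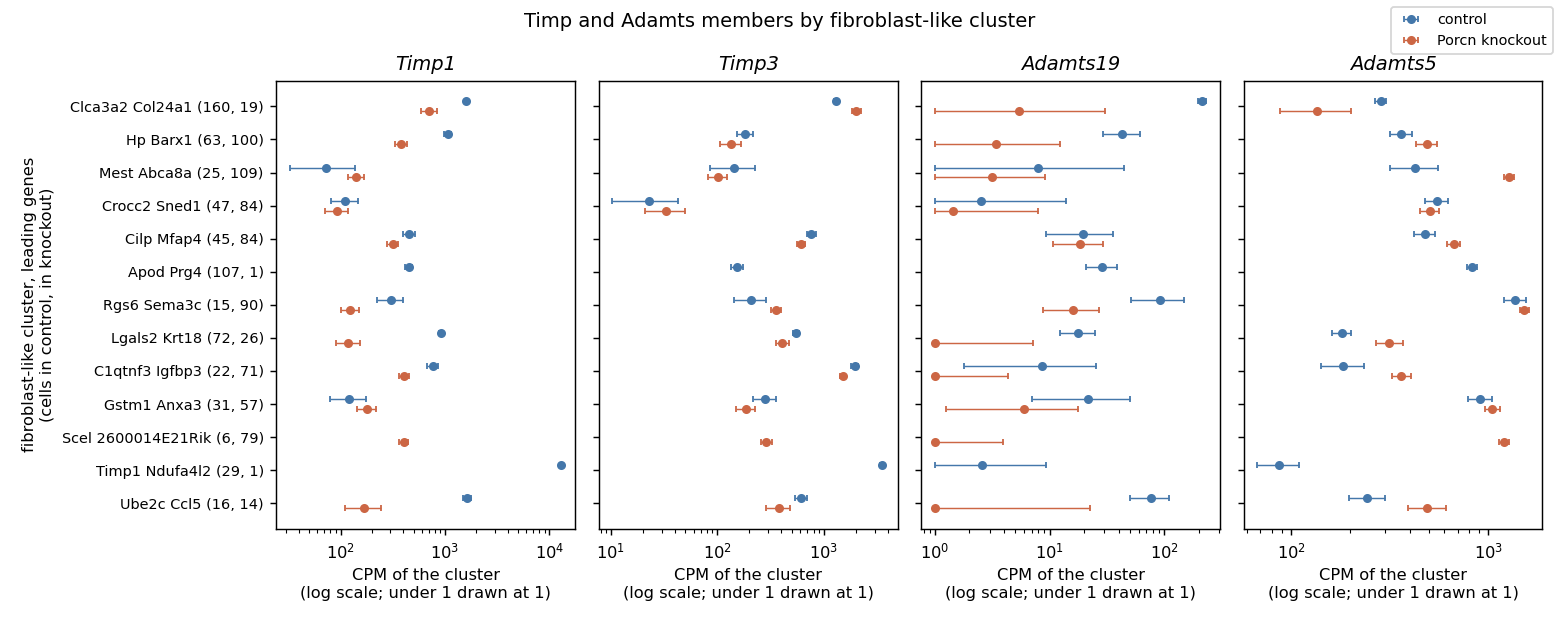
CPM of Timp1, Timp3, Adamts19 and Adamts5 in each fibroblast-like cluster (rows, with 2 leading genes and the cells in control and knockout), with exact 95% Poisson intervals, log axes, and only libraries with at least 10 cells in a cluster drawn. The Timp1-led cluster lies at 12776 CPM of Timp1 in control and has no knockout point, and Adamts19 is highest in the control cells of the cluster led by Clca3a2 and Col24a1.

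Timp1 was also lower in the knockout library outside the fibroblast-like class, but not in every class. In the mesothelial-like cells, of which there were 45 and 31, control Timp1 stood at 863 CPM (792 to 939) and knockout Timp1 at 220 CPM (170 to 279). In an unnamed cluster led by Csmd1, Ank and Hmga2 it was at 299 CPM (289 to 309) and 146 CPM (131 to 161), and in one led by 2610528A11Rik, Tnnt2 and Grem1 at 148 and 76.6 CPM. Both clusters scored highest for the epithelial/tumour markers. They are named here by genes that lead against clusters of other classes, while other clusters are named by genes leading within their class. Within the unnamed cells, the Csmd1-led cluster was led by Col3a1, Col8a1 and Pla2g7. The other was led there by Hilpda, Ifit3 and Ifit3b. Fibroblast transcripts (Col1a1, Col1a2, Col3a1 and Dcn) moved with Timp1 in both clusters. They were at 404 CPM in control and 76.8 CPM in knockout in the Csmd1-led cluster and at 57.0 and 28.7 CPM in the other. Their part in the Timp1 values was not tested. In epithelial/tumour-like cells Timp1 was at 68.6 and 57.1 CPM, a log2 ratio of -0.26 (-0.32 to -0.21). In monocyte/macrophage-like cells it was at 70.6 and 85.4 CPM, where the interval of the log2 ratio, -0.01 to 0.56, spans 0. The difference between the classes was not tested.

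Over all members measured in fibroblast-like cells by at least 20 UMIs, 8 of 34 were at least 2-fold higher in the knockout library, where 8.04% of all genes were. Another 10 of 34 were at least 2-fold lower, where 6.87% of all genes were. The median log2 ratio of the 34 was 0.11, near the 0.09 of all 13476 genes. The members past 2-fold thus had no common direction. In the Timp family 2 of 3 were lower. In the Adamts family 6 of 17 were higher and 4 lower, and in the Mmp family 2 of 14 were higher and 4 lower. Keratin UMIs moved with the libraries in this class: the highest share of other cells' RNA, from the epithelial set Krt8, Krt18, Krt19 and Epcam, was 14.8% of the library level in control and 5.08% in knockout fibroblast-like cells. Most of it sat in a cluster led by Lgals2, Krt18 and Ffar4 (72 and 26 cells), at 3491 and 2501 CPM. Without that cluster 7 of 32 members were at least 2-fold higher and 9 at least 2-fold lower. The share of all genes was not taken without that cluster. The macrophage set C1qa, C1qb and C1qc was nearly as high, at 14.6% of its library level in control and 3.30% in knockout. In the cluster led by C1qtnf3 and Igfbp3 that set was at 273 and 9.41 CPM. The part of epithelial or macrophage RNA in the other values was not tested.

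**Figure D3:**
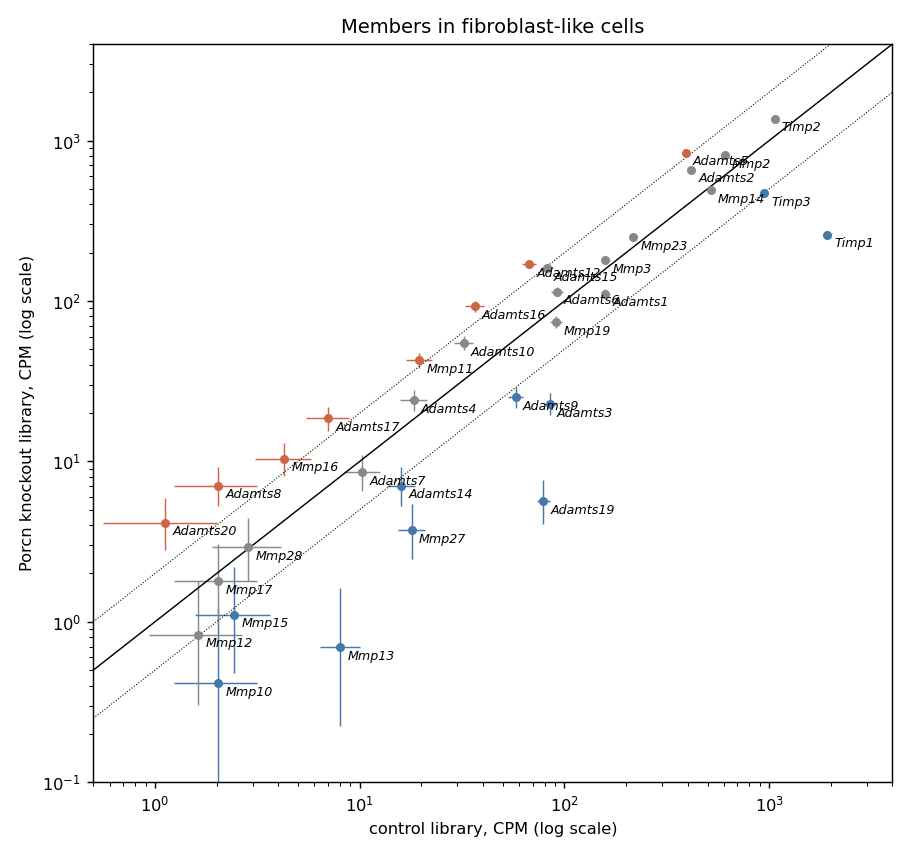
CPM of each member with at least 20 UMIs in fibroblast-like cells, control library against knockout library, both axes log, with exact 95% Poisson intervals, the line of equality and dotted lines at 2-fold. Timp1, Adamts19, Adamts3 and Mmp13 lie below the lower dotted line and Adamts12 and Adamts16 above the upper one.

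The proteoglycan-cutting Adamts enzymes differed in both directions in fibroblast-like cells. Adamts5, the main aggrecanase of mouse cartilage and a versican-cutting enzyme, was at 391 CPM (3839 UMIs) in control and 838 CPM (6062 UMIs) in knockout cells, a log2 ratio of 1.10 (1.04 to 1.16). Adamts15 was at 82.0 and 159 CPM, a log2 ratio of 0.96 (0.83 to 1.09), just inside 2-fold. Adamts4, another aggrecanase, was at 18.3 and 24.1 CPM, a log2 ratio of 0.39. Adamts1 and Adamts9, which also cut versican, lay on the lower side. Adamts1 was at 158 and 111 CPM, a log2 ratio of -0.51 (-0.64 to -0.39), and Adamts9 at 57.9 and 25.03 CPM, a log2 ratio of -1.21 (-1.46 to -0.97). Adamts8 and Adamts20 had few UMIs, 20 and 51 for Adamts8 and 11 and 30 for Adamts20 in control and knockout, and lay past 2-fold on the higher side.

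With the shared clusters weighted alike, Adamts5 was still higher, but at a log2 ratio of 0.41, and Adamts15 was at 0.03. Adamts9 was then at -0.47, Adamts8 at 0.14 and Adamts20 at 0.93, all inside 2-fold. In control cells Adamts5 ranged from 87.0 CPM in the Timp1-led cluster to 1370 CPM in the cluster led by Rgs6 and Sema3c, which had 15 control and 90 knockout cells. The cluster led by Mest and Abca8a (25 and 109 cells) was the one where Adamts5 itself differed most, at 423 CPM in control and 1274 CPM in knockout. The cluster led by Scel and A2m held 6 control and 79 knockout cells and had 1203 CPM of Adamts5 in knockout. The cluster led by Apod, Prg4 and Ccl8, with 107 control cells and 1 knockout cell, had 826 CPM in control. Clusters rich in Adamts5 were thus found in both libraries.

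The procollagen-processing Adamts enzymes did not move together. Adamts2, which removes the amino-terminal propeptide of fibrillar procollagens, was at 416 CPM in control and 659 CPM in knockout fibroblast-like cells, a log2 ratio of 0.66 (0.60 to 0.72). Adamts3, which performs the same cut and also activates the lymphatic growth factor Vegfc, was at 84.7 and 22.8 CPM, a log2 ratio of -1.89 (-2.14 to -1.65). Adamts14, the third enzyme of this kind, was at 16.0 and 7.05 CPM, a log2 ratio of -1.16 (-1.67 to -0.72). With clusters weighted alike, the log2 ratio was -0.03 for Adamts2, -1.50 for Adamts3 and -0.57 for Adamts14, which was then inside 2-fold.

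Of the other Adamts genes, Adamts19 had the log2 ratio farthest from 0 of the 34 members measured in this class. It was at 78.8 CPM (774 UMIs) in control and 5.67 CPM (41 UMIs) in knockout fibroblast-like cells, a log2 ratio of -3.76 (-4.29 to -3.34), and of -3.38 with clusters weighted alike. The control cells of the cluster led by Clca3a2, Col24a1 and Saa3 held 604 of the 774 UMIs at 215 CPM, and its 19 knockout cells held 1 UMI. That cluster had 160 control cells and was also the site of Adamts3 (198 CPM in control and 54.3 in knockout). Adamts19 was likewise lower in knockout cells of the cluster led by Hp and Barx1 (43.1 and 3.41 CPM) and of the cluster led by Rgs6 and Sema3c (91.0 and 15.9 CPM). In the cluster led by Cilp and Mfap4 it was about equal, at 19.4 and 18.3 CPM. Adamts19 UMIs came almost only from this class, with 94.05% of the control library's UMIs of the gene.

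A further 3 genes were higher in knockout fibroblast-like cells. Adamts12, which cuts cartilage oligomeric matrix protein, was at 67.3 and 170 CPM, a log2 ratio of 1.34 (1.20 to 1.48) and of 0.57 with clusters weighted alike. Adamts16 was at 36.4 and 92.4 CPM, a log2 ratio of 1.34 (1.15 to 1.53) and of 1.03 with clusters weighted alike, the one member still at least 2-fold higher under that weighting. Adamts17 was at 7.02 and 18.5 CPM, a log2 ratio of 1.39 (0.97 to 1.84). Adamts6, Adamts7 and Adamts10 lay inside 2-fold, at log2 ratios of 0.32, -0.25 and 0.76. Adamts10 was at -0.03, the opposite direction, and Adamts17 at 0.42 with clusters weighted alike.

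Among the Mmps of fibroblast-like cells, the genes with most UMIs lay inside 2-fold. Mmp2, the gelatinase of stromal cells, was at 607 CPM in control and 810 CPM in knockout cells, a log2 ratio of 0.42 (0.36 to 0.47). Mmp14, the membrane-type enzyme that activates pro-Mmp2, was at 519 and 492 CPM, a log2 ratio of -0.08 (-0.14 to -0.01). Mmp23, another membrane-anchored enzyme, was at 217 and 250 CPM, and Mmp19 at 91.0 and 74.0 CPM. Mmp3, stromelysin 1, was at 159 and 179 CPM in the class as a whole. In control, 923 of its 1558 UMIs came from the cluster led by Apod, Prg4 and Ccl8, which had 107 control cells and 1 knockout cell. In knockout, 473 of its 1295 UMIs came from the cluster led by Mest and Abca8a. Similar class values thus came from different clusters.

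Among Mmps with fewer UMIs, 6 lay past 2-fold. Mmp27 was at 17.9 CPM (176 UMIs) in control and 3.73 CPM (27 UMIs) in knockout, a log2 ratio of -2.22 (-2.90 to -1.67), and 101 of the control UMIs came from that same Apod-led cluster. Mmp13, collagenase 3, had 79 and 5 UMIs, a log2 ratio of -3.30 (-5.20 to -2.26). The 5 knockout UMIs were not above the level that free RNA from other cells could give. Mmp11, stromelysin 3, was at 19.5 and 42.6 CPM, a log2 ratio of 1.12 (0.86 to 1.39). With clusters weighted alike that ratio was -0.27, the opposite direction, while Mmp27 was at -1.36. Mmp16 (42 and 75 UMIs) lay on the higher side, and Mmp10 (20 and 3) and Mmp15 (24 and 8) on the lower side, with Mmp15 not above the free RNA level in either library. These 3 were inside 2-fold with clusters weighted alike, at 0.50, -0.31 and -0.71. Mmp12, Mmp17 and Mmp28 had under 50 UMIs in this class and lay inside 2-fold.

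In monocyte/macrophage-like cells, the class that Csf1r-Cre targets, none of the 7 Mmps measured by at least 20 UMIs was at least 2-fold lower in the knockout library and 1 was higher, while their summed UMIs were lower. The control sum was 3303 CPM (3232 to 3375) and the knockout sum 1835 CPM (1786 to 1886). Mmp12, macrophage elastase, gave most of the summed UMIs, at 2460 CPM (6200 UMIs) in control and 1261 CPM (3575 UMIs) in knockout, a log2 ratio of -0.96 (-1.02 to -0.90). Mmp13 was at 535 and 337 CPM, a log2 ratio of -0.66 (-0.79 to -0.54), Mmp14 at 211 and 165 CPM, a log2 ratio of -0.35 (-0.53 to -0.17), and Mmp19 at 51.2 and 27.9 CPM, a log2 ratio of -0.87 (-1.30 to -0.46). Mmp8 had 63 and 62 UMIs and Mmp27 was at 6.35 and 6.70 CPM, with intervals of the log2 ratio that span 0. Timp2 was at 314 and 232 CPM, a log2 ratio of -0.43 (-0.59 to -0.28). At the 20-UMI minimum, 1 of 12 members, Mmp25 (8 and 21 UMIs), was at least 2-fold higher, where 2.77% of all genes were. Likewise 1 of 12, Timp3 (14 and 6 UMIs), was at least 2-fold lower, where 3.79% of all genes were, and Timp3 was not above the free RNA level in either library. The 12 had a median log2 ratio of -0.29, against -0.03 for all 10328 genes.

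The cluster led by Chil3, Mmp13 and Mmp12 held 31.6% of the class in control (162 cells) and 16.5% in knockout (91 cells). Within it Mmp12 was at 4061 CPM in control and 3354 CPM in knockout, and Mmp13 at 918 and 931 CPM. A cluster led by Ly6c2, which marks inflammatory monocytes, held 5.66% of the class in control and 26.1% in knockout, with Mmp12 at 150 and 202 CPM. In the cluster led by Tmem176a and Tmem176b, Mmp12 was at 299 and 133 CPM. The remaining cluster, led by Gm26917 and Plcb1, held 33.6% of the class in control (172 cells) and 22.6% in knockout (125 cells). Mmp12 was at 810 and 659 CPM in it. Its cells were shallow, at median depths of 1733.5 and 1670 UMIs. Their C1qa, C1qb and C1qc stood at 400 and 320 CPM, against 9591 and 11739 CPM in the Tmem176a-led cluster. With the 4 clusters weighted alike, the log2 ratio was -0.31 for Mmp12 and -0.06 for Mmp13. Both genes lead the Chil3-led cluster, so their height there is not a finding.

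The share of cells with an Mmp12 UMI was taken after thinning each cell to 1000 UMIs. Mmp12 was seen in 31.3% (27.3 to 35.6) of 498 control and 17.9% (14.8 to 21.4) of 541 knockout monocyte/macrophage-like cells. Without thinning the shares were 40.6% and 24.1%, at median depths of 2887 and 4047.5 UMIs. In T-like cells, which should lack the gene, the thinned shares were 1.11% of 180 control and 0.378% of 1588 knockout cells, at median depths of 2823 and 3345.5 UMIs. Thinning left out 14 control and 11 knockout monocyte/macrophage-like cells and 9 control and 34 knockout T-like cells, which had fewer than 1000 UMIs. The monocyte/macrophage-like shares were thus far above those of T-like cells in both libraries.

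**Figure D4:**
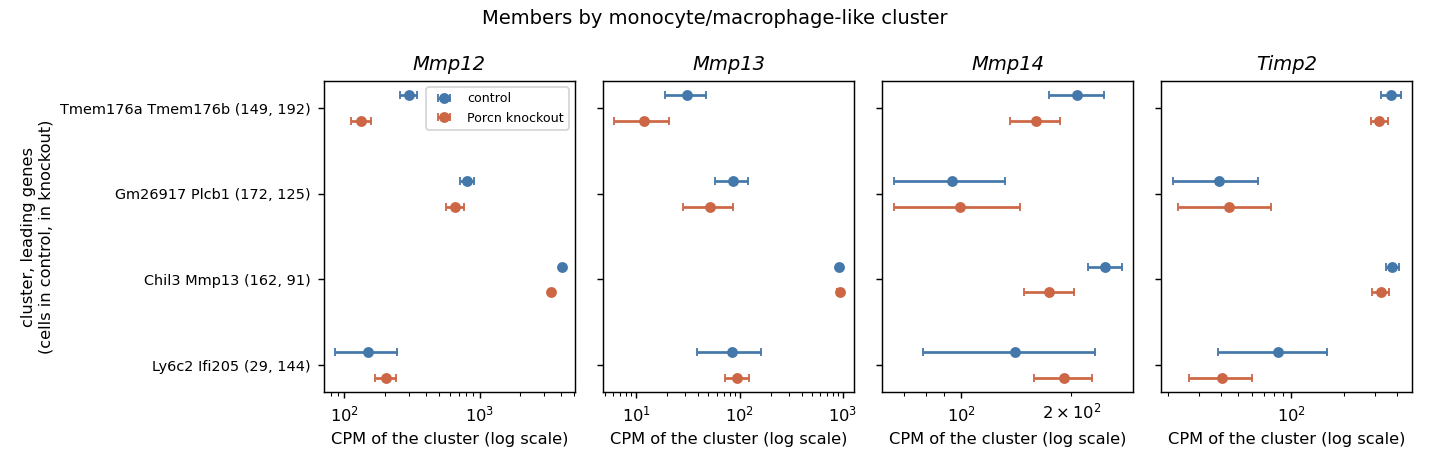
CPM of Mmp12, Mmp13, Mmp14 and Timp2 in the 4 monocyte/macrophage-like clusters (rows, with 2 leading genes and the cells in control and knockout), with exact 95% Poisson intervals on log axes. The control and knockout points of Mmp13 lie together in the Chil3-led cluster at 918 and 931 CPM, and those of Mmp12 in the Tmem176a-led cluster lie apart, at 299 and 133 CPM.

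Neutrophil-like cells carried Mmp9 and Mmp8, the gelatinase and collagenase stored in neutrophil granules, and Mmp25, a membrane-anchored enzyme of leukocytes. Mmp9 was at 477 CPM (394 UMIs) in control and 362 CPM (167 UMIs) in knockout, a log2 ratio of -0.40 (-0.67 to -0.14). Mmp8 was at 299 and 227 CPM, a log2 ratio of -0.39 (-0.74 to -0.06), and Mmp25 at 83.6 and 41.1 CPM (69 and 19 UMIs), a log2 ratio of -0.97 (-1.84 to -0.27). None of the 4 members with at least 20 UMIs was past 2-fold, where 7.42% of all genes were at least 2-fold higher and 7.29% at least 2-fold lower. The 2 granule genes differed in where they were highest. Mmp8 was highest in the cluster led by Camp and Ngp, which mark immature neutrophils, at 481 CPM in 54 control cells and 857 CPM in 11 knockout cells. Mmp9 was highest in the cluster led by Cd101 and Prr5l, at 739 and 737 CPM. That cluster held 103 of the 293 control and 32 of the 185 knockout neutrophil-like cells. With the 3 clusters weighted alike, the log2 ratio was 0.14 for Mmp8 and -0.17 for Mmp9. When each cell was named singly by its own markers it was 0.41 for Mmp8 and 0.26 for Mmp9, so the direction of both turned with the naming. Macrophage transcripts differed between the libraries in this class: C1qa, C1qb and C1qc stood at 5.33% of their library level in control and 58.9% in knockout neutrophil-like cells. Timp2, at 96.9 and 106 CPM, was therefore not above the free RNA level in the knockout library, and the 3 Mmps were above it in both.

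Outside stroma and myeloid cells, Adamts genes were read from lymphocytes. In T-like cells Adamts6, for which few functions are known, was at 396 CPM (262 UMIs) in control and 215 CPM (1455 UMIs) in knockout, a log2 ratio of -0.89 (-1.07 to -0.69). Its level in neutrophil-like cells was 3.63 and 2.17 CPM, and the T-like level was above the free RNA level in both libraries. In control, 47.7% of its UMIs came from 10 cells. The lowest cluster of each library was the one led by Klf3 and Lef1, genes of naive T cells, at 152 and 80.4 CPM, and the cluster led by Ccl3 and Prf1, genes of cytotoxic cells, was at 478 and 317 CPM. The cluster led by Ntrk3 and Tnfsf8 went the other way, at 308 CPM (41 UMIs) and 339 CPM (335 UMIs). In the cluster led by Foxp3, the factor of regulatory T cells, Adamts6 was at 451 CPM (27 UMIs) and 135 CPM (146 UMIs). Adamts14 was at 52.9 CPM (35 UMIs) and 17.8 CPM (121 UMIs), a log2 ratio of -1.60 (-2.12 to -0.98), and of -1.08 with the 5 clusters weighted alike. Most Adamts14 UMIs, 26 of 35 and 92 of 121, lay in the Prf1 cluster. Adamts10 was at 33.2 and 31.4 CPM and Timp2 at 39.3 and 42.0 CPM. Of 6 members with at least 20 UMIs, none was at least 2-fold higher, where 4.4% of all genes were, and only Adamts14 was at least 2-fold lower, where 5.83% were.

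Adamts14 was also found in NK-like cells, at 214 CPM (29 UMIs in 38 cells) in control and 103 CPM (86 UMIs in 241 cells) in knockout. Adamts6 was read by 106 UMIs in the 449 knockout B-like cells, at 68.3 CPM, while the control library had 8 such cells and none of its UMIs. Mmp25 was at 363 CPM (25 UMIs) in the 17 control and 247 CPM (103 UMIs) in the 71 knockout migratory dendritic-like cells, with overlapping intervals, 235 to 535 and 201 to 299. Migratory dendritic-like cells held 54.2% of all Mmp25 UMIs of the knockout library, and neutrophil-like cells 51.9% of those of the control library.

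Epithelial/tumour-like cells had lower levels of most members but, as the largest class, many of the UMIs. They held 68.3% of control and 59.5% of knockout UMIs of Timp2, at 544 CPM (540 to 548) and 549 CPM (544 to 555), a log2 ratio of 0.01 (-0.01 to 0.03). Mmp14 was at 121 and 94.6 CPM, a log2 ratio of -0.35 (-0.40 to -0.31), and Timp3 at 49.7 and 42.2 CPM, a log2 ratio of -0.24. Mmp13 differed the other way from its level in macrophages and fibroblasts, at 19.2 CPM (2308 UMIs) in control and 28.9 CPM (2014 UMIs) in knockout, a log2 ratio of 0.59 (0.51 to 0.68). Mmp13 was equal or higher in knockout cells in 8 of the 9 epithelial/tumour-like clusters, all but the smallest, led by Apoe and Epcam, where it had 4 control UMIs and none in knockout. With clusters weighted alike, the log2 ratio of Mmp13 was 0.39 in this class and -0.06, near equal, in monocyte/macrophage-like cells. In fibroblast-like cells Mmp13 had few UMIs, and its knockout level was not above the free RNA level. Whether the direction differs between classes was not tested.

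Adamts1 was the member of epithelial/tumour-like cells with many UMIs that lay past 2-fold. It was at 29.2 CPM (3511 UMIs) in control and 12.3 CPM (855 UMIs) in knockout, a log2 ratio of -1.25 (-1.36 to -1.14), and lower in knockout cells in each of the 9 clusters. With clusters weighted alike the log2 ratio was -0.90, inside 2-fold. The cluster with most cells was one led by Cxcl12, Adamts1 and Fn1, at 74.1 CPM in 2125 control cells and 43.9 CPM in 602 knockout cells. Mmp7, matrilysin, a protease of ductal epithelium, had 56 and 89 UMIs, a log2 ratio of 1.45 (0.96 to 1.97). The 10 richest cells held 98.2% of these in control and 93.3% in knockout. All 56 control and 68 of the 89 knockout UMIs came from a cluster of 41 control and 51 knockout cells led by Apoe and Epcam, at 80.5 and 47.4 CPM, and the other 21 from a cluster led by Lgals4 and Dmbt1. With clusters weighted alike the log2 ratio was 0.18. In all, 1 of 30 members (Mmp7) was at least 2-fold higher, where 5.45% of all genes were. Another 2 of 30, Adamts1 and Mmp9, were at least 2-fold lower, where 2.05% of all genes were. Mmp9, with 19 and 2 UMIs, was not above the free RNA level.

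The remaining members of this class lay inside 2-fold. Mmp15, a membrane-type enzyme of epithelia, was at 19.2 and 15.6 CPM, a log2 ratio of -0.30. Mmp28, epilysin, was at 24.5 and 25.3 CPM, a log2 ratio of 0.05. Mmp16 was at 8.47 and 5.69 CPM, Adamts9 at 22.8 and 21.3 CPM and Adamts6 at 14.5 and 16.3 CPM. Adamts7 was at 3.21 and 2.36 CPM, and the tested members not named here were at or under 1.92 CPM in both libraries. Mmp2, Mmp12, Adamts2 and Adamts5 were not above the free RNA level here.

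The family sums differed between libraries in opposite directions in different classes. Adamts UMIs were higher in knockout fibroblast-like cells, with a control sum of 1551 CPM (1527 to 1576) and a knockout sum of 2322 CPM (2287 to 2357), and lower in knockout T-like cells, at 488 and 273 CPM. Mmp UMIs were near 1654 and 1872 CPM in fibroblast-like cells, and at 877 and 680 CPM in neutrophil-like cells. Epithelial/tumour-like cells stood at 201 and 178 CPM of Mmp, 76.9 and 58.6 CPM of Adamts and 662 and 648 CPM of Timp UMIs. With clusters weighted alike, the log2 ratio of the fibroblast-like sums was 0.01 for Mmp, 0.07 for Adamts and -0.11 for Timp, against 0.18, 0.58 and -0.90 for the class as it stood.

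**Figure D5:**
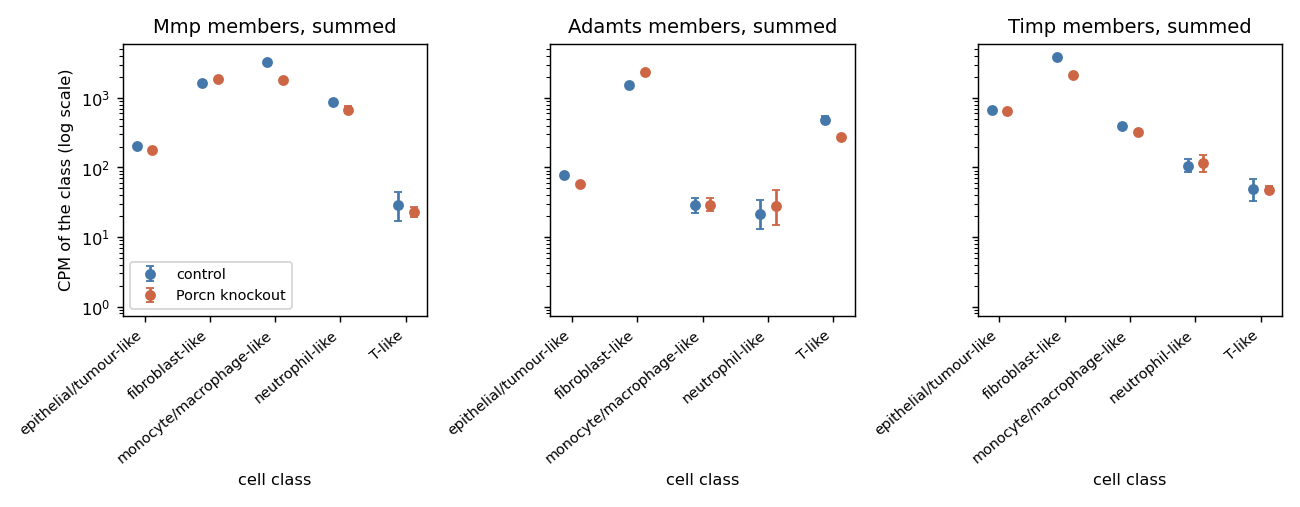
Summed CPM of the Mmp, Adamts and Timp members in each compared class, control and knockout, with exact 95% Poisson intervals on a log axis. The Timp sum of fibroblast-like cells (3916 and 2100 CPM) and the Mmp sum of monocyte/macrophage-like cells (3303 and 1835 CPM) stand lower in the knockout library, and the Adamts sum of fibroblast-like cells (1551 and 2322 CPM) higher.

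Other genes of the pathway were read in fibroblast-like cells beside the members, where 8.04% of all genes were at least 2-fold higher in knockout and 6.87% at least 2-fold lower. Of 7 further inhibitors and inducers, 6 had at least 20 UMIs, and 3 of these were at least 2-fold higher in knockout and none lower. They were A2m, a broad protease inhibitor (19.95 and 92.6 CPM), Reck, a membrane inhibitor of Mmps (16.5 and 39.0 CPM), and Spock2 (3.05 and 8.43 CPM). A2m also leads a cluster made up mostly of knockout cells. Of the plasminogen system, which activates pro-Mmps, 2 of 6 were at least 2-fold higher, Plau (25.1 and 50.6 CPM) and Serpine2 (64.4 and 176 CPM). Plaur, the urokinase receptor, was at least 2-fold lower (42.8 and 12.4 CPM), and Serpinb2, the inhibitor PAI-2, had 1063 UMIs in control and 0 in knockout. Of the proprotein convertases and tolloids, which mature these proteases and collagens, 2 of 6 were higher, Pcsk5 (77.3 and 199 CPM) and Pcsk6 (38.5 and 127 CPM). Of 12 transcription factors of protease genes, none was higher and 2 were lower: Fosl1, a subunit of AP-1 (15.3 and 1.94 CPM), and Ets2 (16.0 and 7.74 CPM). None of the 7 measured Adam proteases lay past 2-fold. Of the 11 measured collagens, elastin, fibronectin and laminins, 2 were higher, Col4a1 and Col4a2. Comp, a substrate of Adamts12, was at 3.36 and 27.9 CPM. Cd44, a surface receptor that docks Mmp9, was the 1 of 6 receptors past 2-fold, at 212 and 84.3 CPM. Of the 5 measured ADAMTS-like genes, 2 were higher, Adamtsl2 and Adamtsl3.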

How the data were processed

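Single-cell 3′ libraries of 2 pooled tumour samples were analysed from the deposited matrices, which hold raw UMI counts per gene and barcode, per the file headers. The submitters' processing notes name Cell Ranger 3.1.3 and mm10, while the matrix header names 8.0.0. Whether intronic reads or strand entered the counts is not given in the sources used here. A cell needed 500 or more genes and no more than 15% mitochondrial UMIs, and Scrublet doublets (expected rate 0.08) were removed (148 control and 341 knockout barcodes). Cells were clustered with scanpy 1.11.5 on 2000 variable genes without the members, at Leiden resolution 1. Leukocyte and stromal clusters were clustered again, and classes were named from marker lists. The stromal step and the scoring and tie rules were set after clusters were seen.

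UMIs were summed per class and library as CPM with exact 95% Poisson intervals. The log2 ratio used a pseudocount of 1 UMI, its interval is the exact conditional one, and members with at least 20 UMIs were compared. Members with at least 100 UMIs were given values in both libraries. A level was called above free RNA where its lower limit exceeded the share of the library level that genes foreign to the class reached. The ratio was tested on simulated data. Weighting clusters alike gave each shared cluster the same weight in both libraries, using clusters of at least 10 cells in each. Members and gene lists were chosen with earlier results of these data known. Alternatives changed the cell filter, doublets, resolution, naming, minimum, pseudocount, thinning and weighting. Some genes of the pathway lists are not reported here.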

Additional observations from a re-analysis of the deposited data

How the results depend on the processing

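No paired analysis was possible because each genotype is 1 library. With clusters weighted alike, the fibroblast-like log2 ratio took the opposite direction for Mmp11 (-0.27), Timp3 (0.12), Adamts2 (-0.03) and Adamts10 (-0.03). Adamts2 and Adamts10 were then near equal in the libraries. Under that weighting 1 of 34 members was at least 2-fold higher and 6 lower in place of 8 and 10. The cause of that change was not tested. The share of all genes past 2-fold was taken only in the main setting, not in this or the other settings below. Whether all genes changed in the same way under these settings was therefore not tested. A mean over cells gave 5 higher in that class. In T-like cells, where 1 member was lower, the count was 2 with the loose cell filter, doublets kept, Leiden resolution 0.5 or a mean over cells, 3 when cells were named singly by their own markers and 25 at a minimum of 1 UMI. In epithelial/tumour-like cells, where 1 was higher, it was 2 with the loose filter, doublets kept, resolution 0.5 or 2, or the unnamed tumour clusters added, 5 at a minimum of 1 UMI, and 0 by a mean over cells or with clusters weighted alike. Where 2 were lower there, it was 1 at resolution 0.5, by own markers, at a minimum of 100 UMIs or by a mean over cells, 4 with the unnamed clusters added or at a minimum of 1 UMI, and 7 at resolution 2. In monocyte/macrophage-like cells, where 1 was higher, it was 0 with the loose filter, a minimum of 100 UMIs, a mean over cells or clusters weighted alike, 2 by own markers and 6 at a minimum of 1 UMI. Where 1 was lower there, it was 0 at a minimum of 100 UMIs, 2 with the loose filter or a mean over cells, 3 by own markers and 6 at a minimum of 1 UMI. In neutrophil-like cells, where none was past 2-fold, 6 were higher at a minimum of 1 UMI, and the lower count was 1 with the strict filter, the loose filter, doublets kept or a minimum of 1 UMI, and 4 by own markers. Leaving out the Timp1-led or the keratin-carrying fibroblast-like cluster was chosen after seeing the data. These left 8 and 7 members higher and 9 lower in each case. At a minimum of 1 UMI the pseudocount weighs heavily where the libraries differ in the total UMIs of a class. In T-like cells, with 661977 control and 6780891 knockout UMIs, a gene with 0 control and 1 knockout UMI stood at -2.36. The counts at that minimum are thus partly set by library size and do not describe the members. Counts of a few UMIs and 1 library per genotype limit all of these values.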
